A study of Homo sapiens with 4 samples.

Results

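The histone lysine methyltransferases and demethylases were taken as the genes whose annotated symbol begins with KMT, KDM or SETD and a number, together with EHMT1, EHMT2, EZH1, EZH2, NSD1 to NSD3, SUV39H1, SUV39H2 and the numbered PRDM genes. This rule found 59 members among the 18132 named genes of the array, of which 19 were KDM, 14 PRDM, 9 SETD and 8 KMT genes. Each member was read from its probe set with the highest mean signal over the 4 arrays, and its other probe sets served as a check. A member was kept where at least 1 array reached a floor of 6.75 on the log2 scale, the median of all gene probe sets. The floor kept 47 of the 59 members and 10958 of all genes, and 43 members lay above it on all 4 arrays. The 12 members under it on every array were KMT2D, KDM4D, KDM4E, KDM6B, PRDM6, PRDM7, PRDM8, PRDM9, PRDM11, PRDM12, PRDM13 and PRDM14.

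A549 is an established line of human lung adenocarcinoma cells, and its total RNA was collected after 48 h with or without 2 drugs. The combination cells received 25 µmol/L dihydroberberine and 2 µmol/L sunitinib, the dihydroberberine cells 25 µmol/L of that compound alone, the sunitinib cells 2 µmol/L of that inhibitor alone, and the untreated cells neither. Dihydroberberine is a hydrogenated derivative of the plant alkaloid berberine, and sunitinib blocks several receptor tyrosine kinases. Each condition held 1 array, so no test was possible, no difference between arrays has an error, and "higher" and "lower" compare 1 array with another. A vehicle control is not named in the labels. In bulk RNA, fewer cells with a transcript and less of it per cell cannot be told apart.

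Lysine methyltransferases write and demethylases erase methyl groups on histone tails, using S-adenosylmethionine as the methyl donor in the first case and, for most demethylases, 2-oxoglutarate and oxygen in the second. Methylation of lysine 4 of histone H3 (H3K4) marks active promoters and enhancers, that of H3K36 the bodies of transcribed genes, and that of H3K9, H3K27 and H4K20 is found largely in repressed or compacted chromatin. PRDM proteins carry a related domain, but several of them act as DNA-binding transcription factors with no methyltransferase activity shown.

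Array medians spanned 6.73 to 6.76, and Pearson's r between pairs of arrays ran from 0.986 to 0.994 over the gene probe sets. The dihydroberberine array stood apart in its control probes. Its Alu probe lay 0.41 lower than on the untreated array and the median of its 18S ribosomal probes 0.68 lower, and its probes for background of 15 to 25 G or C bases had a median of 7.15, against 6.95 on the combination array, 6.99 on the sunitinib array and 6.70 on the untreated array. Background may therefore lie above the floor. The actin probe sets for the 3′ and 5′ ends differed by 0.63 on that array, against 0.82, 0.85 and 0.91 on the combination, sunitinib and untreated arrays. Of 6 epithelial markers 4 lay above the floor on all arrays, while EPCAM and CDH1 lay under it on all 4. All 4 measured markers of an active NRF2 program, which A549 carries through its KEAP1 mutation, were above the floor. Of 4 fibroblast markers none was above the floor on all arrays, though PDGFRB was on 3. Of 3 endothelial markers 1 was on all arrays, VWF, and of 4 leukocyte markers 1 was. The summed signal of the leukocyte markers was 264, 531, 312 and 815 on the combination, dihydroberberine, sunitinib and untreated arrays, and its part in the results was not tested. In the same order CD14 had log2 signals of 5.76, 6.75, 6.27 and 8.82 and CD68 7.06, 8.42, 7.33 and 8.16. PTPRC and CD3E lay under the floor on all 4 arrays.

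Dihydroberberine against untreated gave the widest differences among the members. Of the 47 kept, 3 were at least 2-fold lower with dihydroberberine, namely SETD1B, NSD2 and KDM2A, where 3.52% of all kept genes passed that size. PRDM1 was the 1 member at least 2-fold higher, where 1.05% of all genes were. The members' median log2 difference was -0.24, against -0.03 for all genes, and 34 of 47 members (72.3%) had a negative difference, against 53% of all genes. At a size of 1.5-fold 10 members were lower, where 12.6% of all genes were, and 1 was higher, where 4.86% were. The members past 1.5-fold lower were 21.3% of those kept, a share above that of all genes, which no test of these single arrays can separate from it, and 5 of the 10 also had a probe set of the opposite sign (EHMT1, KDM2B, KDM5C, NSD1 and NSD2). The probe sets of 1 gene differed from each other by a median SD of 0.21 over the 31 members with 2 or more above the floor, against 0.14 over 6407 genes, and this spread does not measure the error between arrays. The map of log2 differences shows all 47 members in the 5 comparisons.

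**Figure D1:**
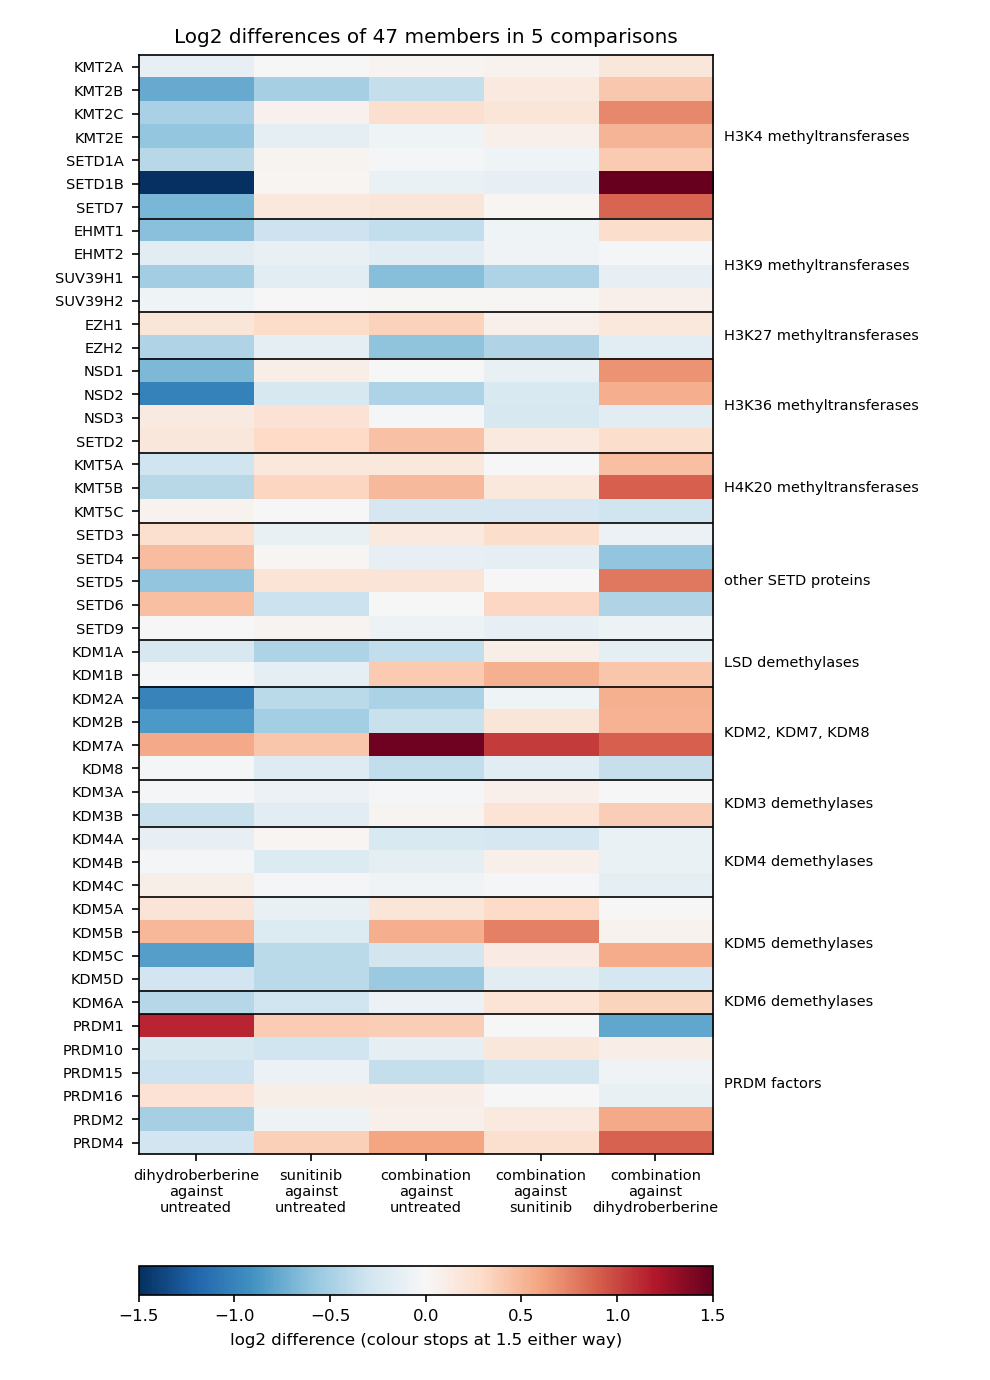
Log2 differences of the 47 members above the floor (rows, grouped by role) in the 5 comparisons (columns), blue for lower and red for higher in the first-named condition, with the colour stopping at a difference of 1.5 either way. The column for dihydroberberine against untreated is mostly blue (34 of 47 negative), and SETD1B and PRDM1 are its extremes at -2.32 and 1.14.

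The sunitinib array stood close to the untreated array. No member reached 2-fold in either direction, where 0.21% of all genes were higher and 0.584% lower, and none reached 1.5-fold, where 1.61% of all genes were higher and 3.78% lower. The median over the members was -0.08, against -0.04 for all genes. The combination against untreated had 1 member past 2-fold higher, KDM7A, where 1.16% of all genes were, and 0 past 2-fold lower, where 1.5% were. Its median over the members was -0.02, the same as for all genes. At 1.5-fold KDM7A and PRDM4 were higher and EZH2 and SUV39H1 lower, where 6.85% and 7.24% of all genes were. KDM7A was above the floor in the combination only, at 7.11, so it was kept through that array. The median of that array's background probes was 6.95. KDM7A passed these sizes with its untreated value taken as measured, and against the floor it was at least 1.28-fold higher.

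The methyltransferases of H3K4 are the catalytic subunits of COMPASS-type complexes (KMT2A, KMT2B, KMT2C, SETD1A, SETD1B), the monomethyltransferase SETD7, which also acts on other proteins, and KMT2E, a relative whose catalytic activity is disputed. All 7 kept members of this group were lower with dihydroberberine than in untreated cells, with a median difference of -0.58, and all 7 were higher in the combination than with dihydroberberine alone, with a median of 0.51. Of all kept genes 53% were lower in the first comparison and 5395 of 10958 higher in the second. Both comparisons use the dihydroberberine array. In the combination against sunitinib, which does not use it, 5 of the 7 were higher and 2 lower, with a median of 0.05. Of all kept genes 5556 of 10958 were higher there.

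SETD1B had a log2 signal of 9.42 in the combination, 7.19 with dihydroberberine, 9.54 with sunitinib and 9.51 in untreated cells. The dihydroberberine array was low and the other 3 lay within 0.13 of each other. SETD1B was 5.00-fold lower with dihydroberberine than in untreated cells and, in the combination, 4.68-fold above the dihydroberberine array, and it rests on a single probe set. Its dihydroberberine signal of 7.19 was at the median of that array's background probes, 7.15, so it may be background there and the folds are not exact. It was the 1 member past 2-fold in the combination against dihydroberberine, where 2.78% of all genes were higher and 0.438% lower.

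SETD7 had a signal of 10.93 in the combination, 10.06 with dihydroberberine, 10.90 with sunitinib and 10.74 in untreated cells, again with the dihydroberberine array lowest. KMT2E stood at 8.87, 8.36, 8.80 and 8.93 on the combination, dihydroberberine, sunitinib and untreated arrays. All 7 of its probe sets above the floor were lower with dihydroberberine than in untreated cells, by log2 differences between -0.99 and -0.27. KMT2C had signals of 8.38, 7.66, 8.21 and 8.14 in the same order, and all 4 of its probe sets were lower with dihydroberberine. KMT2B, whose untreated array was the highest, had 7.84 in the combination, 7.43 with dihydroberberine, 7.69 with sunitinib and 8.19 in untreated cells. SETD1A differed by -0.42 between dihydroberberine and untreated on its single probe set. KMT2A, the MLL1 enzyme, differed by only -0.12, and its 5 probe sets gave differences from -0.94 to 0.26, so its direction depends on the probe set read.

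**Figure D2:**
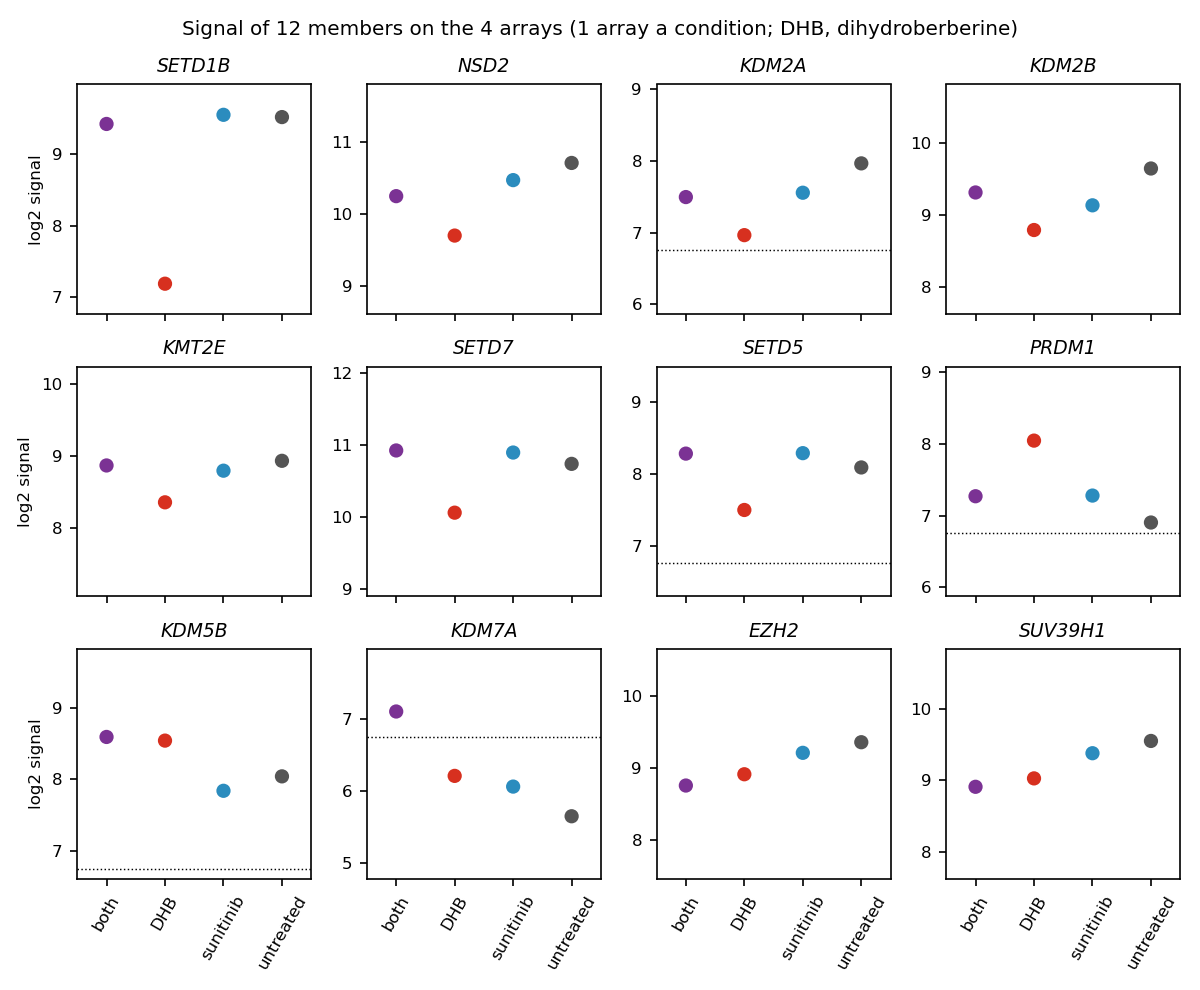
Log2 signal (vertical axes, all of the same span) of 12 members on the 4 arrays, 1 point an array, in the order combination (both), dihydroberberine (DHB), sunitinib and untreated, with the floor of 6.75 as a dotted line where it falls in range. SETD1B, SETD7 and SETD5 are low on the dihydroberberine array only, PRDM1 is high there only, and EZH2 and SUV39H1 are lower on both arrays with dihydroberberine than on both without it.

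COMPASS partners, the shared scaffold subunits and cofactors of these enzymes, were read from a list of 13, of which 12 were kept. With dihydroberberine 1 of them was at least 2-fold lower and 0 higher, where 3.52% and 1.05% of all kept genes were, with a median difference of -0.50. HCFC1, which tethers SETD1 and MLL complexes to transcription factors, was 2.28-fold lower, though its other probe set differed by 0.18. WDR82, a subunit specific to SETD1A and SETD1B complexes, was 1.87-fold lower with all 5 of its probe sets negative, and WDR5, a core subunit, was 1.74-fold lower with both probe sets negative. In the combination against sunitinib these 12 partners had a median of -0.18, with 9 negative, where 49.2% of all kept genes were.

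Among the H3K36 methyltransferases NSD2, which dimethylates H3K36, had a signal of 10.25 in the combination, 9.70 with dihydroberberine, 10.47 with sunitinib and 10.71 in untreated cells. The dihydroberberine array was the lowest and the untreated array the highest. NSD2 was 2.02-fold lower with dihydroberberine than in untreated cells, and 8 of its 9 probe sets were negative, with a range from -1.20 to 0.17. In the combination against sunitinib the difference was -0.22, also with 8 of 9 negative. NSD1, of the same family, had signals of 7.77, 7.10, 7.88 and 7.78 on the combination, dihydroberberine, sunitinib and untreated arrays. It was low on the dihydroberberine array, with 4 of 5 probe sets negative. That value, 7.10, lay under the median of the array's background probes, 7.15, so NSD1 differences that use it are not exact. NSD3 and SETD2, the enzyme of H3K36 trimethylation, differed by 0.14 and 0.17 between dihydroberberine and untreated.

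The H3K27 methyltransferase EZH2, the catalytic subunit of the Polycomb complex PRC2, and the H3K9 methyltransferase SUV39H1 were the 2 members more than 1.25-fold lower with dihydroberberine both without sunitinib and on top of it, where 4.64% of all kept genes were. These 2 comparisons share no array. EZH2 had a signal of 8.75 in the combination, 8.91 with dihydroberberine, 9.21 with sunitinib and 9.36 in untreated cells. SUV39H1 had 8.91, 9.03, 9.38 and 9.55 in the same order. For both genes the 2 arrays with dihydroberberine lay under the 2 without it, and the differences were -0.45 and -0.46 for EZH2 and -0.52 and -0.47 for SUV39H1, without and with sunitinib.

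Both probe sets of EZH2 and all 5 of SUV39H1 were negative in both of these comparisons. The SUV39H1 probe set of highest signal carries a suffix for probes shared between transcripts, and with such probe sets left out the difference against untreated was -0.09 and that against sunitinib -0.31. The mean of all probe sets gave -0.19 for EZH2 with dihydroberberine against untreated. All 14 genes of a proliferation list also had negative differences in both comparisons, with medians of -0.63 and -0.28, and the part of proliferation in the EZH2 and SUV39H1 differences was not tested. Neither member reached 1.5-fold in either of the 2 comparisons. In the combination against untreated EZH2 was 1.52-fold lower and SUV39H1 1.56-fold lower.

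EZH1, the other PRC2 enzyme, differed from EZH2 in its pattern, with 7.63 in the combination, 7.47 with dihydroberberine, 7.55 with sunitinib and 7.28 in untreated cells. Of 11 listed PRC2 partners 10 were kept, and their median was -0.28 with dihydroberberine against untreated and 0.01 in the combination against untreated. PHF19, an accessory subunit that binds H3K36 methylation, was 2.20-fold lower in the combination than in untreated cells with both of its probe sets negative, the 1 partner past 2-fold in that comparison. SUZ12, a core subunit, differed by -0.49 with dihydroberberine against untreated.

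The other H3K9 enzymes differed less, except EHMT1, the partner of EHMT2 in H3K9 dimethylation. EHMT1 had 9.36 in the combination, 9.10 with dihydroberberine, 9.43 with sunitinib and 9.73 in untreated cells, and was lower than untreated on all 3 treated arrays. Its other probe set differed by 0.11 between dihydroberberine and untreated, so the direction of that difference is not settled. EHMT2 and SUV39H2 differed by -0.16 and -0.06.

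Of the methyltransferases outside the PRDM factors, NSD2, EZH2 and SUV39H1 were lower with dihydroberberine by more than 0.2 on the log2 scale both without and with sunitinib. PRDM15 also passed this size, at -0.31 and -0.28, and is not shown. The size of 0.2 was used only for this choice, which was made with the values known. Promoter sequences are shown for NSD2, EZH2 and SUV39H1. They are the 250 bases before the gene start, 5′ to 3′ on the gene's strand, from RefSeq on GRCh38.p14, at chr4:1871143-1871392 on the plus strand for NSD2, chr7:148884292-148884541 on the minus strand for EZH2 and chrX:48695304-48695553 on the plus strand for SUV39H1. Capitals mark a match to 1 of the 4 E2F motif forms searched, and lower case the rest.
NSD2: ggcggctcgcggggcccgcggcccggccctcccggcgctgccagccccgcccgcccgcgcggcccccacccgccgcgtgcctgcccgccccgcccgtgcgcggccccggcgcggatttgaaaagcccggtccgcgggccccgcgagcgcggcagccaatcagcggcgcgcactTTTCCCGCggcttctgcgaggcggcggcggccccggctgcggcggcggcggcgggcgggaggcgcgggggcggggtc
EZH2: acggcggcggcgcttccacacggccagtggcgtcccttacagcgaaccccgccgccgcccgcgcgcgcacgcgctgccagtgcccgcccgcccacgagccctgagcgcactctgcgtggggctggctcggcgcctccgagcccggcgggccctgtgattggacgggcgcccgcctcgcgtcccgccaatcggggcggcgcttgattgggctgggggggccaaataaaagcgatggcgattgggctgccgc
SUV39H1: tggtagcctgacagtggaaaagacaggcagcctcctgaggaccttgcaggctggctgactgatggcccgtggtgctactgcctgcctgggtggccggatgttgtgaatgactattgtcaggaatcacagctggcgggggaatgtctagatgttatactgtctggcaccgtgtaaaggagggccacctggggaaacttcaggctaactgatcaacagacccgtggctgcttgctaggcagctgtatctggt
The E2F forms were TTTCCCGC, TTTCGCGC, TTTGCCGC and TTTGGCGC, each searched on both strands. NSD2 held 1 match, with its first base at -77 from the start, and the EZH2 and SUV39H1 windows held none. G and C made up 86% of the NSD2 window, 75.6% of the EZH2 window and 56% of the SUV39H1 window. Among the 27305 RefSeq promoters, 2.79% held an E2F match, against 3 of the 44 kept members with an entry (6.82%), the other two being EZH1 and KDM1B. The AP-1 motif TGAGTCA was found in 2 members and 4.16% of all promoters, the CRE motif TGACGTCA in 1 member and 1.77% of all, and the E-box CACGTG in 7 members and 6.49% of all. A match describes the letters of the window only, and binding was not measured.

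Of the H4K20 methyltransferases KMT5B had 7.39 in the combination, 6.49 with dihydroberberine, 7.23 with sunitinib and 6.91 in untreated cells, so its dihydroberberine array lay under the floor. In the combination it lay at least 1.56-fold above the dihydroberberine array, but its 3 probe sets ran from -0.19 to 0.99 in that comparison. KMT5A, the monomethyltransferase, differed by -0.30 with dihydroberberine against untreated with all 5 probe sets negative, and KMT5C by 0.05. Among the remaining SETD proteins SETD5 stood at 8.28, 7.50, 8.29 and 8.09 on the combination, dihydroberberine, sunitinib and untreated arrays, with the dihydroberberine array lowest in both of its probe sets. SETD6, which methylates the NF-kB subunit RELA, went the other way, with 9.22, 9.68, 8.91 and 9.23 in the same order and all 5 probe sets higher with dihydroberberine than in untreated cells. SETD3, the actin histidine methyltransferase, also had all 5 probe sets higher in that comparison, with a difference of 0.24. SETD4 differed by 0.46 on 1 probe set and by -0.54 on the other. The second had a dihydroberberine signal of 6.36, under the floor, so its difference is not exact.

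Among the 16 kept KDM demethylases 14 were lower with sunitinib than in untreated cells, with a median of -0.20 and none past 1.5-fold, and 55.6% of all kept genes were lower. With dihydroberberine against untreated the median was -0.08 and 12 of 16 were negative, against -0.42 and 18 of 25 for the methyltransferases and SETD proteins. Of all kept genes 53% were negative in that comparison. In the combination against sunitinib 11 of the 16 demethylases were higher, where 5556 of 10958 kept genes were.

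KDM2A, a demethylase of H3K36 dimethylation recruited to CpG islands, had 7.50 in the combination, 6.97 with dihydroberberine, 7.56 with sunitinib and 7.97 in untreated cells. The dihydroberberine array was the lowest of the 4 and near the floor. Its value there also lay under the median of that array's background probes, 7.15, so the measured 2.00-fold, at the edge of the size counted, is not exact. The other probe set differed by -0.72. KDM2B, its paralogue and a subunit of a variant Polycomb complex, stood at 9.31, 8.79, 9.13 and 9.65 on the combination, dihydroberberine, sunitinib and untreated arrays. All 3 treated arrays were lower than the untreated one, and 4 of 5 probe sets were negative with dihydroberberine, with a range from -1.08 to 0.54.

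The KDM5 enzymes, which remove H3K4 methylation, did not share 1 direction with dihydroberberine against untreated. All 4 were lower with sunitinib than in untreated cells, where 55.6% of all kept genes were. KDM5B had a signal of 8.59 in the combination, 8.54 with dihydroberberine, 7.84 with sunitinib and 8.04 in untreated cells, so both arrays with dihydroberberine lay above both without it. It was 1.41-fold higher with dihydroberberine than in untreated cells and 1.68-fold higher in the combination than with sunitinib, and all 3 of its probe sets were positive in both comparisons. Of all kept genes 6% were more than 1.25-fold higher in both. KDM5C stood at 9.64, 9.09, 9.51 and 9.91 on the combination, dihydroberberine, sunitinib and untreated arrays, with the dihydroberberine array lowest and 3 of 4 probe sets negative. KDM5A differed by 0.20 with dihydroberberine against untreated, with 3 probe sets positive and 3 negative, and by 0.29 in the combination against sunitinib, with 5 of 6 positive. KDM5D, its Y-linked relative, was lower than untreated on all 3 treated arrays, by -0.55 in the combination, with all 4 probe sets negative.

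KDM7A, a demethylase of H3K9 and H3K27 dimethylation, was above the floor only in the combination, with a signal of 7.11 there against 6.21 with dihydroberberine, 6.06 with sunitinib and 5.65 in untreated cells. It was the 1 member past 2-fold in the combination against sunitinib, where 0.721% of all genes were higher and 0.119% lower. With the dim arrays set at the floor, the combination was at least 1.28-fold above each other array. Its other probe set lay under the floor.

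KDM1A, the flavin-dependent demethylase LSD1, had 10.75 in the combination, 10.88 with dihydroberberine, 10.66 with sunitinib and 11.12 in untreated cells, lower on all 3 treated arrays. KDM1B, its paralogue, was highest in the combination, with 7.89 against 7.47, 7.35 and 7.49 on the dihydroberberine, sunitinib and untreated arrays. The kept KDM3 and KDM4 enzymes act on H3K9 and in part H3K36. On the probe sets that stand for them, the largest difference in the 5 comparisons was 0.37, for KDM3B in the combination against dihydroberberine. Other probe sets differed more. With dihydroberberine against untreated the 3 of KDM4B ran from -0.76 to -0.03 and the 4 of KDM4C from 0.09 to 0.55. KDM3A, a known target of hypoxia-inducible factors, had a signal between 8.97 and 9.06 on the 4 arrays. A list of 11 kept hypoxia genes had medians of -0.51 and -0.03 with dihydroberberine without and with sunitinib. These genes did not share 1 direction, with 3 positive and 8 negative without sunitinib and 4 positive and 7 negative with it. KDM3B differed by -0.34 with dihydroberberine against untreated, with both probe sets negative. KDM6A, the H3K27 demethylase UTX, had 7.78, 7.45, 7.58 and 7.87 on the combination, dihydroberberine, sunitinib and untreated arrays. Of 7 demethylases outside the symbol rule PHF2, of the KDM7 family, was 2.24-fold lower with dihydroberberine, with all 4 probe sets negative, and the 7 had a median of -0.61 there and -0.10 in the combination against sunitinib.

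PRDM1, the transcriptional repressor BLIMP1, had 7.27 in the combination, 8.05 with dihydroberberine, 7.28 with sunitinib and 6.90 in untreated cells. The dihydroberberine array alone was high. PRDM1 was 2.21-fold higher with dihydroberberine than in untreated cells, but its other 2 probe sets differed by 0.09 and 0.17, and on top of sunitinib the difference was -0.01. The probe set at 0.09 lay under the floor on both the dihydroberberine and the untreated array. PRDM4, a zinc finger factor, stood at 9.64, 8.77, 9.41 and 9.05 on the combination, dihydroberberine, sunitinib and untreated arrays, and its combination array was 1.51-fold above the untreated one with both probe sets positive. PRDM2, known as RIZ1, differed by -0.50 with dihydroberberine against untreated. Among PRDM10, PRDM15 and PRDM16 the largest difference from untreated was -0.36, for PRDM15 in the combination.

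**Figure D3:**
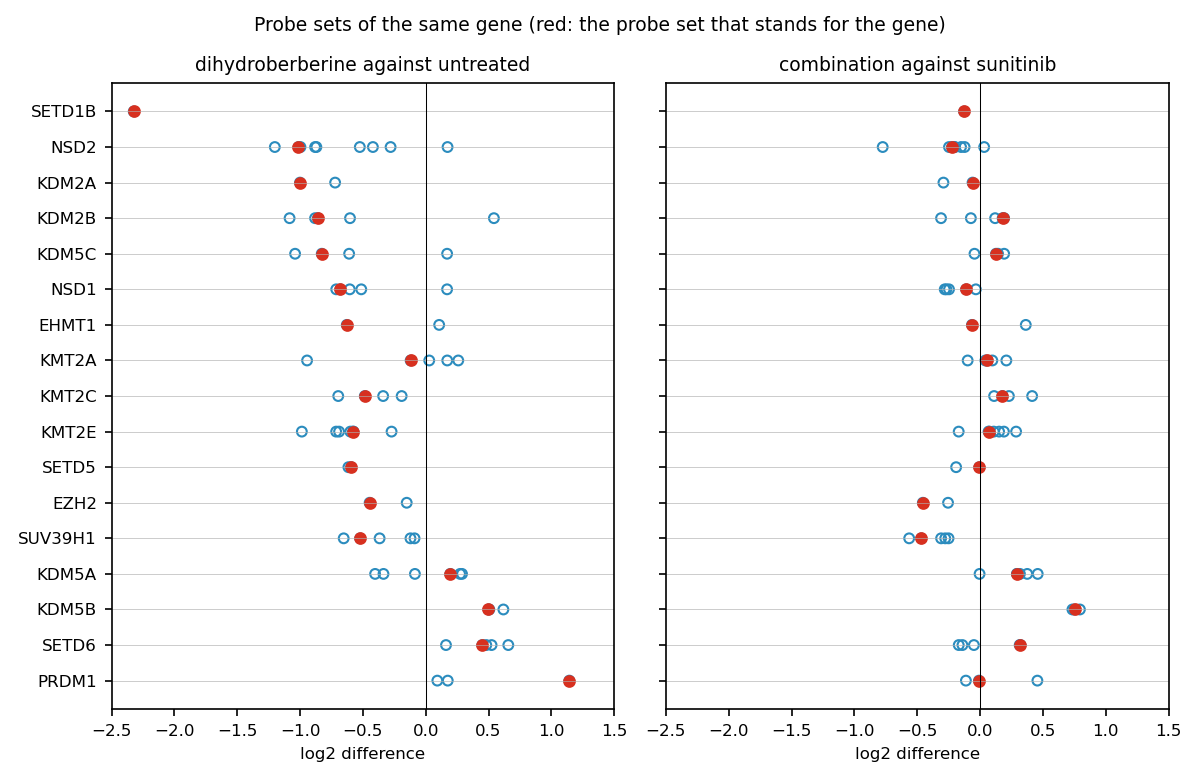
Log2 differences (horizontal axes) of every probe set above the floor for 17 members (rows), with dihydroberberine against untreated on the left and the combination against sunitinib on the right. The red point is the probe set that stands for the gene and open circles are its others; KMT2E, KDM5B and SETD6 have all probe sets on one side of 0 on the left, while KMT2A, KDM2B and KDM5A cross it.

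The difference made by dihydroberberine could be read from 2 pairs of arrays with none in common. The 10 members more than 1.5-fold lower without sunitinib were EHMT1, KDM2A, KDM2B, KDM5C, KMT2B, NSD1, NSD2, SETD1B, SETD5 and SETD7, with a median difference of -0.79. In the combination against sunitinib the same 10 had a median of -0.03, 6 of them were negative and none was past 1.5-fold lower, where 1.47% of all genes were. Of all kept genes 49.2% were negative there. Of the 1377 kept genes past 1.5-fold lower without sunitinib, 102 were past it in both comparisons. The 10 were chosen by their low dihydroberberine array, so a smaller difference without that array can come from the choice alone. At 1.5-fold KDM5B was higher in the combination against sunitinib, as was KDM7A with dim arrays taken as measured, where 3.58% of all genes were. Over the 47 members the 2 differences had the same sign in 24 (51.1%), with Pearson's r of 0.31 and Spearman's rho of 0.21, against 62.1%, 0.45 and 0.37 over the 10958 genes. These are descriptions across genes measured on the same arrays, and genes are not independent replicates.

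**Figure D4:**
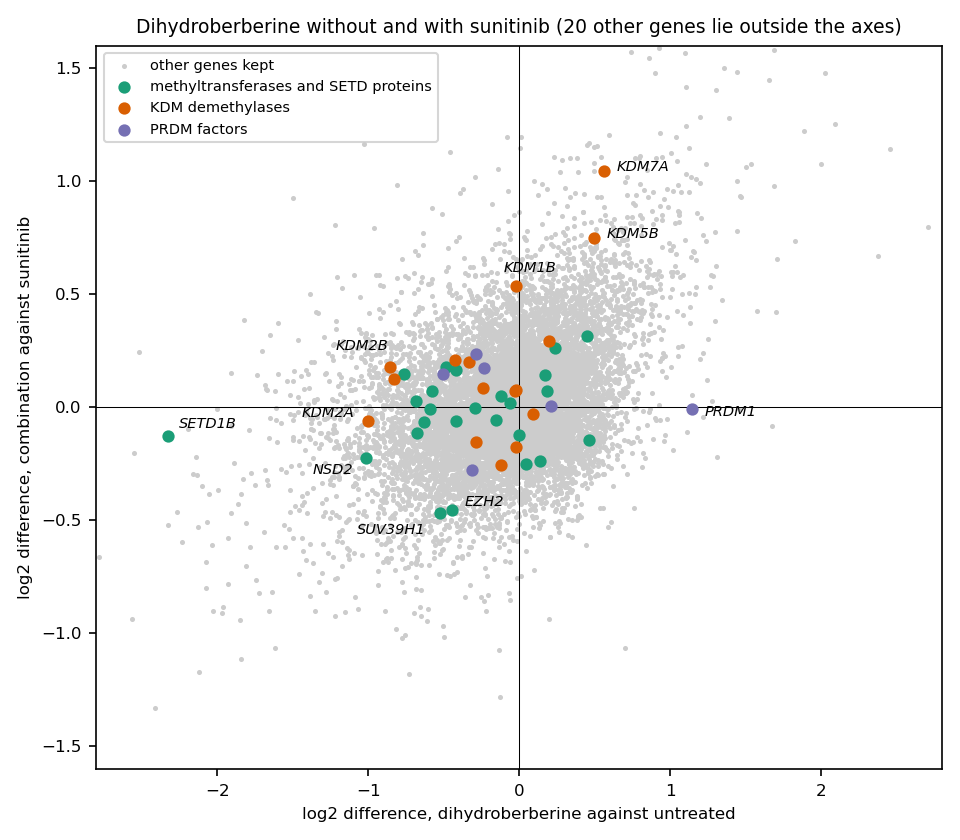
Log2 difference with dihydroberberine against untreated (horizontal axis) and in the combination against sunitinib (vertical axis) for each of the 47 members, coloured by class, and for other kept genes in grey, 20 of which lie outside the axes. SETD1B, KDM2A and PRDM1 lie far from 0 horizontally and within 0.13 of it vertically, NSD2 lies at -1.01 and -0.22, while EZH2 and SUV39H1 lie below and KDM5B and KDM7A above 0 on both axes.

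For sunitinib the 2 pairs without a shared array were sunitinib against untreated and the combination against dihydroberberine. The second had 8 members more than 1.5-fold higher, where 10.3% of all genes were, namely SETD1B, KMT5B, KDM7A, PRDM4, SETD7, SETD5, KMT2C and NSD1, and 2 lower, PRDM1 and SETD4, where 2.75% were. Of these 10, KMT5B, NSD1, PRDM1 and SETD4 had another probe set of the opposite sign, at 0.75 for PRDM1 and 0.42 for SETD4. Those probe sets of PRDM1 and SETD4 lay under the floor on the dihydroberberine array, so the 0.75 and 0.42 are not exact. KDM7A and KMT5B lay under the floor on the dihydroberberine array, and against the floor KDM7A was at least 1.28-fold higher. The first comparison had no member past 1.5-fold. The signs matched in 25 of 47 members (53.2%), against 58.4% over all genes. PRDM4 was more than 1.25-fold higher in both comparisons, as was KDM7A with dim arrays taken as measured, where 3.74% of all genes were. The other probe set of PRDM4 differed by -0.15 with sunitinib against untreated.

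The deviation from additivity, taken as combination minus dihydroberberine minus sunitinib plus untreated, is 0 where the log2 differences of the drugs add. SETD1B and KDM2B lay more than 2-fold above additivity, by 2.20 and 1.04, where 3.39% of all genes did, and PRDM1 more than 2-fold below it, by a deviation of -1.15, where 0.329% did. At 1.5-fold 12 members lay above additivity, where 12.2% of all genes did, and 2 below, where 3.73% did. The members' median deviation was 0.25, against 0.06 for all genes. KDM2B had another probe set at -0.85, so its direction depends on the probe set read. PRDM1 had one at 0.36, above the floor on the combination array only, at 6.85. That value is not exact, and it leaves the direction of the PRDM1 deviation unsettled. EZH2 and SUV39H1 had deviations of -0.01 and 0.05.

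Proteins that read or feed these marks were described from further lists. Of 19 readers of methylated lysine 15 were kept, 3 were at least 2-fold lower with dihydroberberine than in untreated cells, and the same 3 lay at least 2-fold above the dihydroberberine array in the combination. Of all kept genes 3.52% and 2.78% passed these sizes, and both comparisons rest on the 1 dihydroberberine array. CBX2, a Polycomb reader of H3K27 methylation, was 3.51-fold lower and 2.38-fold higher in these comparisons, CBX6 2.82-fold and 2.48-fold, and ING5, a reader of H3K4 trimethylation, 2.57-fold and 2.36-fold. CBX2 and CBX6 rest on 1 probe set each, and the second probe set of ING5 differed by 0.19 and -0.65. The ING5 signal with dihydroberberine, 7.03, lay under the median of that array's background probes, 7.15. Both ING5 folds rest on that value and are not exact.

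Of 14 listed genes for the supply of methyl donor and 2-oxoglutarate 12 were kept, with a median of -0.09 with dihydroberberine against untreated. MAT2A, which makes S-adenosylmethionine, had a signal of 12.78 in the combination, 10.64 with dihydroberberine, 13.0 with sunitinib and 12.77 in untreated cells. It was 4.40-fold lower with dihydroberberine than in untreated cells and, in the combination, 4.42-fold above the dihydroberberine array, with all 6 of its probe sets on the same side in each comparison. Its pattern, low on the dihydroberberine array and close on the other 3, was that of SETD1B. IDH2, the mitochondrial isocitrate dehydrogenase that makes 2-oxoglutarate, was 2.13-fold lower in the combination than in untreated cells. AHCY, which clears S-adenosylhomocysteine, differed by -0.03 between dihydroberberine and untreated. Methyltransferases outside the symbol rule (7 of 11 kept) and arginine methyltransferases (8 of 9 kept) had medians of -0.18 and -0.15 in that comparison, with none past 2-fold.

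**Figure D5:**
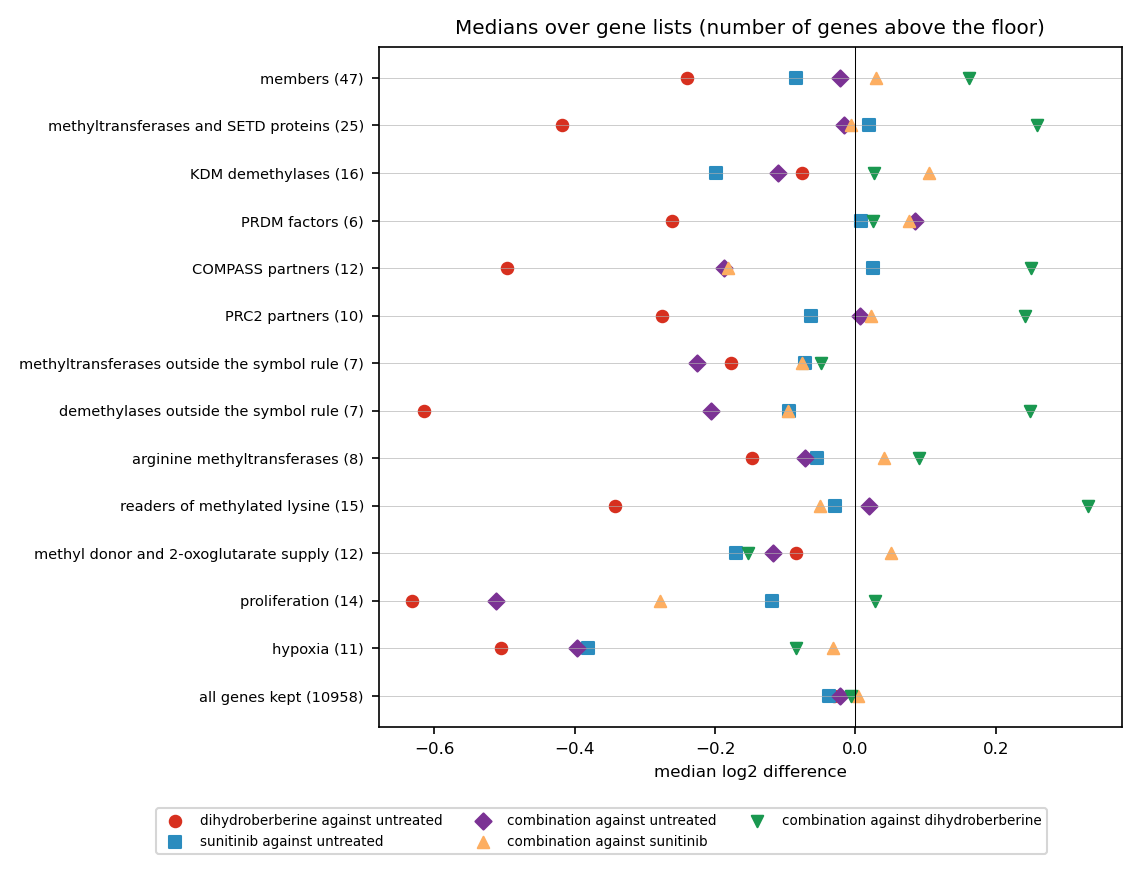
Median log2 difference (horizontal axis) over the members, their classes, the further gene lists and all kept genes (rows, with the number of genes), 1 symbol for each of the 5 comparisons. Dihydroberberine against untreated gives -0.24 for the members and -0.42 for the methyltransferases and SETD proteins, against -0.03 for all genes, while the combination against sunitinib gives 0.03 for the members.

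KDM1A, SETD7, NSD2, KDM5C and KDM3B were the members whose probe sets were brightest in untreated cells, a brightness that depends on the probes and gives no order of abundance between genes.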

How the data were processed

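RNA of 4 conditions was measured on 4 arrays, 1 for each. Per the labels' protocols, labelling was with biotin, using a 3′ kit for GeneChip arrays. The design text names an Agilent array and the label field Cy3, but the probe set names are of Affymetrix type. The deposited values are log2 probe set signals. The submitters' processing notes list Affymetrix Expression Console. Its version, and how probes were summarized and arrays scaled, is not given in the sources used here.

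Of 49293 gene probe sets 44988 had 1 symbol in the platform annotation. All 59 member symbols matched RefSeq by gene identifier. The members had 201 probe sets, and 6 more that also carried another symbol were not used. Differences of log2 values were computed with Python 3.11.15, pandas 2.3.3, NumPy 2.4.6 and SciPy 1.17.1, and counted at 2-fold. A fold with 1 array under the floor was computed against the floor and is written "at least", while counts and medians use measured values. The counting was tested on simulated data.

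No test was run, since each condition held 1 array. The members and lists were chosen with earlier results of these data known. Genes were named where a member passed 2-fold in any comparison or in additivity, was among up to 4 with the largest difference in its role group, passed 1.5-fold in both contrasts of 1 drug (none did), was among the 5 brightest in untreated cells, or had probe sets of opposite sign beside a 1.5-fold difference. Other lists named up to 4 genes each. AHCY and members past none of these, such as KMT2A, SETD1A and PRDM16, were named after their values were seen. Alternatives changed the filter, the probe set, the scaling, the size counted and the PRDM genes.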

Additional observations from a re-analysis of the deposited data

Results flagged for a closer look

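PRDM1 had a log2 difference of 1.14 with dihydroberberine against untreated and of -0.0094 in the combination against sunitinib, so the 2 comparisons of the same drug had opposite signs, the second close to 0. The values were 7.27 in the combination, 8.05 with dihydroberberine, 7.28 with sunitinib and 6.90 in untreated cells. With 1 array per condition the difference between the comparisons was not tested. The dihydroberberine array, on which the first value rests, also had a higher background median, 7.15 against 6.70 on the untreated array, and the part of background was not tested.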

How the results depend on the processing

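No value past 2-fold changed sign under the alternatives run, while 4 medians over the members and 13 smaller single-gene values did. The alternative without the dihydroberberine array, given below, was run on counts and medians only. PRDM1, past 2-fold, changed sign between the 2 comparisons which that alternative exchanges, from 1.14 to -0.0094. Of the counts and medians over the members 116 stayed close to their value and 28 moved. A median or single-gene value was close where it moved by less than the members' median SD between probe sets. A count was close where it was unchanged or moved by at most 1.5-fold. With sunitinib against untreated that SD was 0.16 and the median -0.08, so such a median could change sign and count as close. The count of 116 does not measure stability. With 1.5-fold in place of 2-fold, dihydroberberine against untreated had 10 members lower, the combination against untreated 2 higher and 2 lower, the combination against sunitinib 2 higher, the combination against dihydroberberine 8 higher and 2 lower, and additivity 12 above and 2 below. With the floor at the 75th percentile, which left 21 members, and with a gene read as its mean probe set, the counts higher with dihydroberberine, in the combination against untreated and against sunitinib, and below additivity were each 0. The mean of all probe sets left 1 member lower with dihydroberberine and 1 above additivity, and quantile normalization likewise left 1 and 1. Values raised to the floor gave 0 higher in the combination against untreated and 0 against sunitinib. Without the PRDM genes 0 were higher with dihydroberberine and 0 below additivity.

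Without the dihydroberberine array, an alternative chosen after seeing the data, its comparisons were replaced by those of the same drug that do not use it. The combination against sunitinib had 0 members lower and a median of 0.029 in place of -0.24, and sunitinib against untreated had 0 higher and a median of -0.085 in place of 0.16. The cause was not tested. Of the single-gene values 468 stayed close and 42 moved. Some of the alternatives could not move such a value. A higher floor left the value of a kept gene as it was, and raising values to the floor changed only those under it. Leaving out probe sets with a suffix for shared probes changed only genes read from such a set. The count of 468 therefore does not measure stability. No paired analysis was possible because each condition held 1 array. Signal near background limits members such as SETD1B, KDM7A, KDM2A, KMT5B, NSD1 and PRDM1, and the missing replicates limit every value.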
